A study of Mus musculus with 18 samples.

Results

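The liver mRNA of 7 matrix metalloproteinases (MMPs), *Mmp2*, *Mmp3*, *Mmp9*, *Mmp12*, *Mmp14*, *Mmp15* and *Mmp19*, and of 3 tissue inhibitors of metalloproteinases (TIMPs), *Timp1*, *Timp2* and *Timp3*, was measured by RNA sequencing in mice. These are the 10 genes of 15052 in the deposited table whose symbols are on this list. All 10 were in the table, in which the smallest mean value of any gene was 12.06. The mice were on a liquid diet, all 10 to 12 weeks old and all female according to the labels. The pair-fed WT group had 4 mice (numbers 1 to 4), the pair-fed *Apoe* KO group 5 (1 to 5), the ethanol-fed WT group 5 (1 to 5) and the ethanol-fed *Apoe* KO group 4 (1, 2, 4 and 5). After 5 days of acclimation, ethanol-fed mice received 5% (v/v) ethanol in the diet for 10 days and a gavage of 5 g/kg ethanol on day 11, and were killed 9 h later. Pair-fed mice received an isocaloric diet and a gavage of 9 g/kg dextrin maltose. The *Apoe* KO is a deletion carried in every cell, and the study bought KO and C57BL/6J WT mice as separate strains, so that differences between the strains other than *Apoe* cannot be told apart from the genotype.

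MMPs are zinc-dependent proteases that cut collagens, elastin, laminin and other proteins of the extracellular matrix, as well as cytokines and receptors at the cell surface. They are made as inactive proenzymes. TIMPs bind the active site of MMPs and block it, and TIMP2 also takes part, together with MMP14, in the activation of the MMP2 proenzyme. In injured liver, stellate cells and macrophages are known sources of these proteins, and TIMP1 is widely used as a marker of fibrogenesis.

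The values are read counts that the authors brought to nearly the same total in each mouse and rounded, and they are called values here. The spacing of low values gave an estimate of the reads on genes in 16 of 18 mice, from 5.6 to 52.22 M (mega), a 9.33-fold range. One read stood for 0.618 to 5.763 units. The group medians were 39.48 M in ethanol-fed WT (3 mice resolved) and 10.96 M in ethanol-fed *Apoe* KO mice, so that low values are coarser in the latter. *Apoe* itself was at 611230 to 798431 in the 9 WT mice and at 8586 to 108651 in the 9 KO mice. Ethanol-fed *Apoe* KO mouse 1 went against its label as a female, with a value of 826 for *Xist* and 1077 for *Ddx3y*, where the 17 other mice had 15227 to 30379 and 2 to 118. The study's methods speak of mice of either sex. Tests on the ethanol-fed *Apoe* KO group are therefore also given without this mouse for those of the 10 genes that passed. Other results on this group include it unless stated. Ethanol-fed *Apoe* KO mouse 4 had the highest value of its group for 9 of the 10 genes, and it also had the highest median-of-ratios size factor of all mice, 1.152. In bulk tissue, more cells of a type and more RNA per cell cannot be told apart.

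All but *Mmp15*, 9 of the 10, had their highest group mean in ethanol-fed *Apoe* KO mice. The share of all genes with their highest mean in this group is not given here. For comparison, 10030 of 15052 genes, and 10 of these 10, had a positive difference from ethanol-fed WT mice. Against ethanol-fed WT mice, 5 of the 10 were higher by limma at an adjusted p under 0.05, *Mmp2*, *Mmp3*, *Mmp12*, *Timp1* and *Timp2*, and 0 were lower. Over all genes, 4.25% were higher and 0.445% were lower in the same comparison. The median log2 fold change was 0.695 over the 10 genes and 0.107 over all genes tested. With median-of-ratios scaling, the median of all genes was −0.020, and 380 genes were higher and 126 lower in place of 639 and 67. The values of the ethanol-fed genotypes did not overlap for 4 of the 10 genes, against 8.13% of all genes. Without mouse 1, the number of genes that passed was again 5. These counts include *Mmp3*, whose presence in the table may depend on its level in the ethanol-fed *Apoe* KO mice.

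**Figure D1:**
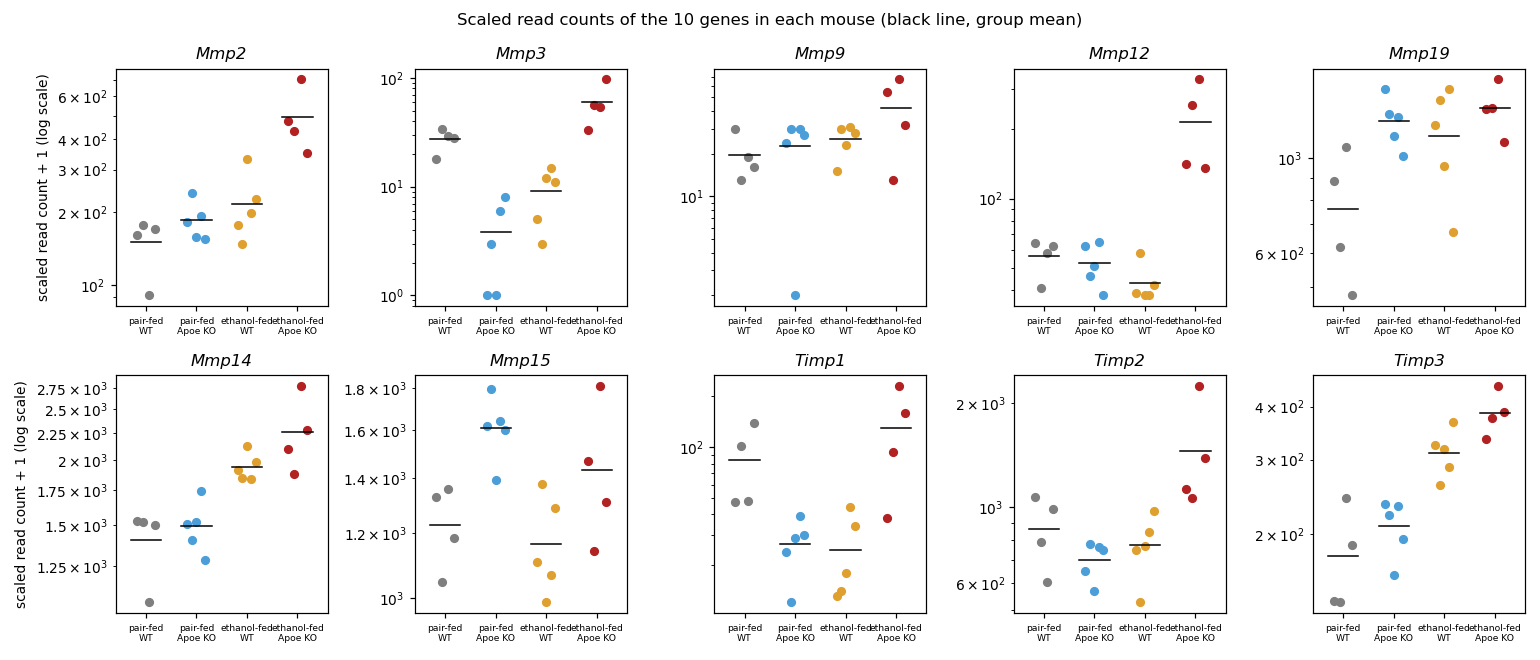
The value of each gene (scaled read count + 1, log axis) in each mouse, with 4 groups on the horizontal axis and a black line at the group mean. For *Mmp12*, all 4 ethanol-fed *Apoe* KO mice (135 to 328) sat above the 14 other mice (37 to 64), and for *Mmp15* the highest group mean was that of the pair-fed *Apoe* KO mice.

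*Mmp12* (ENSMUSG00000049723, GRCm38, chr9:7344381-7369499, plus strand) encodes the elastase of macrophages. Its values were 38, 57, 37, 37 and 41 in the ethanol-fed WT mice and 140, 253, 328 and 135 in the ethanol-fed *Apoe* KO mice. The pair-fed mice had 63, 40, 57 and 61 (WT) and 61, 45, 50, 64 and 37 (*Apoe* KO). All 4 ethanol-fed *Apoe* KO mice lay above every mouse of the other groups, and the 3 other groups overlapped one another. The log2 fold change between the ethanol-fed genotypes was 2.24 (95% confidence interval 1.6 to 2.87, adjusted p = 0.00152 by limma), a 4.72-fold difference on the log2(value + 1) scale. Without mouse 1 it was 2.41 (adjusted p = 0.00522).

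*Mmp3* (ENSMUSG00000043613, chr9:7445822-7455975, plus strand) encodes stromelysin, which degrades several matrix proteins and activates other MMP proenzymes. It was at 4, 2, 11, 14 and 10 in the ethanol-fed WT mice and at 32, 55, 53 and 96 in the ethanol-fed *Apoe* KO mice, without overlap. The pair-fed WT mice had 17, 33, 28 and 27 and the pair-fed *Apoe* KO mice 0, 2, 0, 5 and 7. The lowest group was thus the pair-fed *Apoe* KO, and the highest the ethanol-fed *Apoe* KO. The ethanol-fed genotypes differed by a log2 fold change of 2.83 (95% confidence interval 1.65 to 4.01, adjusted p = 0.0113), and by 3.08 without mouse 1 (adjusted p = 0.0174). With a pseudocount of 10 the difference was 1.89. The level rests on few reads, with 106 estimated reads over the 4 ethanol-fed *Apoe* KO mice and 15 over the 5 pair-fed *Apoe* KO mice. In the pair-fed *Apoe* KO mice with no read, a count of 0 allows a value of up to 11.37 (mouse 1) and 4.05 (mouse 3), and these limits cover counting error only.

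*Mmp3* and *Mmp12* are neighbours, with 76322 bases between them on chromosome 9. Their promoters are shown because they are the genes of the list with the largest differences between the ethanol-fed genotypes among the MMPs. Each line runs from 200 bases before to 20 bases after the RefSeq start (GRCm38.p6), and capitals mark matches to the AP-1 motif TGANTCA and the TATA box TATAAA.
*Mmp3*, chr9:7445622-7445841, plus strand: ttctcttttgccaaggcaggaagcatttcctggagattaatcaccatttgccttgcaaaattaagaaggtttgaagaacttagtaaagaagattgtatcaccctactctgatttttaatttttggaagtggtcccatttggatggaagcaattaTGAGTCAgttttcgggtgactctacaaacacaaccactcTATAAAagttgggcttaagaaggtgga
*Mmp12*, second start, chr9:7347174-7347393, plus strand: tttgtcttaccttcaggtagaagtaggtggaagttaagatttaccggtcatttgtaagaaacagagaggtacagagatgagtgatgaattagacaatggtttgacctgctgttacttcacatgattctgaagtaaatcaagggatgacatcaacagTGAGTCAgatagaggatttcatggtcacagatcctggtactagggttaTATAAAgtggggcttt
Both hold TGAGTCA, which begins 46 bases before the start in *Mmp3* and 44 bases before it in *Mmp12*. TATAAA begins 7 bases before the start in *Mmp3* and at base 5 after it in *Mmp12*, so the *Mmp12* match lies downstream of the start shown. *Mmp12* has 2 starts in the table, and the window of its first start, chr9:7344147-7344446, held none of the motifs searched. The gene-level values do not tell which start was used.

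*Mmp2* (ENSMUSG00000031740, chr8:92827291-92853420, plus strand) encodes gelatinase A, which cuts denatured collagen and type IV collagen and is made by stellate cells and fibroblasts. The ethanol-fed WT mice had values of 177, 147, 331, 197 and 226 and the ethanol-fed *Apoe* KO mice 476, 432, 704 and 350. The lowest KO mouse was close to the highest WT mouse, but the groups did not overlap. Pair-fed WT mice had 161, 177, 90 and 170 and pair-fed *Apoe* KO mice 182, 240, 158, 192 and 155. The ethanol-fed genotypes differed by a log2 fold change of 1.19 (95% confidence interval 0.67 to 1.71, adjusted p = 0.0146), and by the same 1.19 without mouse 1 (adjusted p = 0.0349).

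The other soluble MMPs did not pass the test between the ethanol-fed genotypes. *Mmp9* (ENSMUSG00000017737, chr2:164940780-164955850, plus strand) encodes gelatinase B of neutrophils and macrophages and was the lowest of the 10 genes per length of transcript. It had 14, 29, 22, 30 and 27 in the ethanol-fed WT mice and 54, 12, 66 and 31 in the ethanol-fed *Apoe* KO mice. The ethanol-fed KO mice lay on both sides of the WT mice, with pair-fed values of 29, 12, 18 and 15 in WT and 23, 29, 1, 29 and 26 in *Apoe* KO mice. The log2 difference of 0.52 between the ethanol-fed genotypes had a 95% confidence interval from −0.51 to 1.54 (adjusted p = 0.624). *Mmp19* (ENSMUSG00000025355, chr10:128790910-128800824, plus strand), an MMP of basement membranes, ranged from 672 to 1457 in ethanol-fed WT and from 1092 to 1531 in ethanol-fed *Apoe* KO mice. Its log2 difference was 0.26 (95% confidence interval −0.17 to 0.68, adjusted p = 0.542). Of the exon bases of *Mmp19*, 22.3% are shared with exons of *Tmem198b* on the opposite strand, and whether counting used the strand is not given in the sources used here.

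The membrane-type MMPs are anchored in the plasma membrane and act at the cell surface. *Mmp14* (ENSMUSG00000000957, chr14:54431612-54445364, plus strand) cleaves fibrillar collagen and activates proMMP2. It had 1908, 1843, 2128, 1840 and 1980 in the ethanol-fed WT mice and 2097, 1881, 2767 and 2284 in the ethanol-fed *Apoe* KO mice. The groups overlapped, with a log2 difference of 0.21 (95% confidence interval −0.05 to 0.46, adjusted p = 0.377). *Mmp15* (ENSMUSG00000031790, chr8:95352268-95375080, plus strand), its relative, ranged from 987 to 1375 in ethanol-fed WT and from 1141 to 1809 in ethanol-fed *Apoe* KO mice, a log2 difference of 0.29 (95% confidence interval −0.02 to 0.60, adjusted p = 0.313).

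*Timp1* (ENSMUSG00000001131, chrX:20870166-20874735, plus strand) encodes a secreted inhibitor that blocks most soluble MMPs. It had 12, 13, 17, 43 and 33 in the ethanol-fed WT mice and 37, 93, 229 and 158 in the ethanol-fed *Apoe* KO mice. KO mouse 1, with 37, lay below WT mouse 4, with 43, and the other 3 KO mice lay above all WT mice. The pair-fed WT mice had 46, 100, 47 and 138, as high as some of the ethanol-fed *Apoe* KO mice, and the pair-fed *Apoe* KO mice 23, 11, 28, 38 and 29. The ethanol-fed genotypes differed by a log2 fold change of 2.30 (95% confidence interval 1.17 to 3.42, adjusted p = 0.0256), and by 2.79 without mouse 1 (adjusted p = 0.0105). The call was lost without WT mouse 1 (adjusted p = 0.0692) or 2 (0.0516), without KO mouse 4 (0.0848) or 5 (0.0812), and with voom on the estimated reads (0.0792), while *Timp1* was higher in the KO in each of these fits. WT mice 2 and 5 had no estimate of reads, and their values entered the voom fit as if they were reads.

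*Timp2* (ENSMUSG00000017466, chr11:118301069-118355740, minus strand) encodes the inhibitor that forms the complex with MMP14 and proMMP2. It had 746, 527, 769, 843 and 973 in the ethanol-fed WT mice and 1122, 1057, 2239 and 1388 in the ethanol-fed *Apoe* KO mice. The groups did not overlap, and KO mouse 4 stood well above the other 3. The pair-fed WT mice had 1066, 788, 605 and 985 and the pair-fed *Apoe* KO mice 652, 777, 569, 761 and 748. The ethanol-fed genotypes differed by a log2 fold change of 0.87 (95% confidence interval 0.41 to 1.34, adjusted p = 0.0384), and by 0.97 without mouse 1 (adjusted p = 0.0402). The call was lost without KO mouse 4 (0.64, adjusted p = 0.0939), without KO mouse 5 or any of WT mice 1 to 4, where the adjusted p ran from 0.0510 to 0.0880, and with median-of-ratios scaling (0.74, adjusted p = 0.0502).

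*Timp3* (ENSMUSG00000020044, chr10:86300372-86349506, plus strand) encodes an inhibitor that is bound to the matrix and also blocks ADAM proteases. The ethanol-fed WT mice had 323, 260, 316, 287 and 367 and the ethanol-fed *Apoe* KO mice 335, 375, 446 and 388. The ranges overlapped through KO mouse 1 (335) only, and the log2 difference of 0.31 (95% confidence interval −0.01 to 0.64) did not pass the test (adjusted p = 0.275). Without mouse 1 it was 0.38 and did not pass either (adjusted p = 0.225 by limma). Of its exon bases, 21.3% are shared with *Syn3* on the opposite strand, whereas *Timp1*, which lies within *Syn1*, shares none with it.

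The promoters of *Timp1* and *Timp2* are shown for comparison with those of *Mmp3* and *Mmp12*, with matches to the GC box GGGCGG and the CAAT box CCAAT on either strand in capitals (RefSeq, GRCm38.p6, from 200 bases before to 20 bases after the start, written along the strand of the gene).
*Timp1*, chrX:20869966-20870185, plus strand: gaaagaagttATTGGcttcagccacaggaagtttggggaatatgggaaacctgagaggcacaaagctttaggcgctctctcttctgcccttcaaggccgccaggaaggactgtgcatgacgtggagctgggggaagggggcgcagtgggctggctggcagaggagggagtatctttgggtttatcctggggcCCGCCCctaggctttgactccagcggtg
*Timp2*, chr11:118355392-118355611, minus strand: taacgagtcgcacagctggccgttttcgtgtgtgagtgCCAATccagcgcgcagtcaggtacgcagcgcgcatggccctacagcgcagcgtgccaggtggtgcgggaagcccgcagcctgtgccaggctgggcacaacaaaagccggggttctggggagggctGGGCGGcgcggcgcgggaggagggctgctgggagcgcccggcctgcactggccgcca
Of the 10 genes, 7 matched the promoter table, with 8 promoters, and *Mmp2*, *Mmp9* and *Mmp19* did not. In windows of 250 bases before to 50 after the start, read on both strands, TGANTCA was in 2 of the 8, both named above, against 7.8% of 32851 promoters. TATAAA was in the same 2, against 13.6%. GGGCGG was in 5, those of *Mmp14*, *Mmp15*, *Timp1*, *Timp2* and *Timp3*, against 35.7%, and CCAAT in 3, those of *Mmp14*, *Timp1* and *Timp2*, against 37.4%. CACGTG, the E-box of the USF and Myc kind, was in 0 of 8, against 7.2%. In *Mmp14*, one of the matches to CCAAT, read on the minus strand, overlaps the first of its GC boxes. These are matches of letters in a window and say nothing of binding.

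Without ethanol, none of the 10 genes passed between genotypes. In pair-fed mice, 0 of the 10 genes passed the test by limma, against 0.870% of all genes higher and 0.864% lower in *Apoe* KO mice. At an unadjusted p under 0.05, 2 of the 10 were higher, *Mmp19* (log2 difference 0.74, adjusted p = 0.0649) and *Mmp15* (0.39, 0.0721), and 2 were lower, *Mmp3* (−3.30, 0.0594) and *Timp1* (−1.59, 0.0737). With 2 of the 5 pair-fed *Apoe* KO mice at 0, the difference of *Mmp3* depends on the pseudocount, and it was −4.76 with 0.1 (adjusted p = 0.143) and −1.52 with 10 (adjusted p = 0.0258, a pass). The values of *Mmp3*, *Timp1* and *Mmp15* did not overlap between the pair-fed genotypes, 3 of 10 genes against 7.03% of all genes. For *Mmp15*, the pair-fed WT mice had 1325, 1044, 1355 and 1183 and the pair-fed *Apoe* KO mice 1619, 1794, 1390, 1639 and 1601. For *Mmp19*, they had 882, 618, 1061 and 476 against 1452, 1272, 1129, 1246 and 1010, with an overlap of WT mouse 3 and KO mouse 5. The number that passed was 3 without pair-fed WT mouse 3 and 2 without pair-fed *Apoe* KO mouse 5, and *Mmp3* passed with voom on the estimated reads (−3.27, adjusted p = 0.0213).

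Ethanol changed a few of the genes in WT mice. *Mmp14* and *Timp3* rose and *Timp1* fell, 2 and 1 of the 10 genes against 6.19% of all genes higher and 6.52% lower. *Mmp14* was at 1527, 1519, 1066 and 1499 in the pair-fed WT mice, all below the ethanol-fed WT mice, and rose by a log2 fold change of 0.48 (95% confidence interval 0.22 to 0.74, adjusted p = 0.0205). *Timp3* was at 138, 137, 242 and 188 in the pair-fed WT mice, all below the ethanol-fed WT mice, and rose by 0.85 (0.43 to 1.26, adjusted p = 0.0119). *Timp1* was higher in each pair-fed than in each ethanol-fed WT mouse and fell by 1.78 on the log2 scale (adjusted p = 0.0236). This call was lost without pair-fed WT mouse 2 (adjusted p = 0.0745) or 4 (0.0831) and without ethanol-fed WT mouse 1 (0.0507) or 2 (0.0515). *Mmp3* was also higher in each pair-fed than in each ethanol-fed WT mouse (log2 difference −1.76, adjusted p = 0.0599). The values of these 4 genes did not overlap between diets in WT mice, against 14.4% of all genes.

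In *Apoe* KO mice, ethanol changed most of the genes, and this comparison shares its ethanol-fed mice with the genotype comparison above. Of the 10, 7 rose and 0 fell, against 16.3% of all genes higher and 6.92% lower. The median of all genes was 0.126, and 2446 were higher and 1042 lower, while with median-of-ratios scaling the median was 0.002, with 1656 higher and 1607 lower. *Mmp3* rose by a log2 fold change of 4.37 (95% confidence interval 2.73 to 6.01, adjusted p = 0.00136), and by 2.39 with a pseudocount of 10. *Timp1* rose by 2.10 (adjusted p = 0.00864), *Mmp12* by 1.96 (adjusted p = 0.000574) and *Mmp2* by 1.37 (adjusted p = 0.000472). With voom on the estimated reads, the change of *Timp1* was 1.55 and did not pass (adjusted p = 0.0672). The pair-fed *Apoe* KO mice had 1509, 1404, 1521, 1742 and 1284 for *Mmp14*, all below the ethanol-fed *Apoe* KO mice. They had 235, 221, 159, 232 and 194 for *Timp3*, again all below. *Timp2* rose by 0.99 (adjusted p = 0.00249), *Timp3* by 0.89 (adjusted p = 0.00168) and *Mmp14* by 0.59 (adjusted p = 0.0039). The values did not overlap between diets for 6 of these 7 genes, all but *Timp1*, against 20.0% of all genes. *Mmp9* (1.11), *Mmp19* (0.10) and *Mmp15* (−0.18) did not pass the test. Without ethanol-fed *Apoe* KO mouse 1, the same 7 genes passed by limma, with *Mmp3* at 4.62 (adjusted p = 0.00332) and *Timp1* at 2.59 (adjusted p = 0.0017).

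The ethanol response itself differed between the genotypes for 4 of the 10 genes, tested as the interaction of diet and genotype in all 18 mice, against 2.60% of all genes with a higher and 0.239% with a lower response in *Apoe* KO mice (392 and 36 genes, or 294 and 84 with median-of-ratios scaling). *Mmp3* had an interaction of 6.13 on the log2 scale (95% confidence interval 4.14 to 8.11, adjusted p = 0.00329), made of a difference of −1.76 between diets in WT and of 4.37 in *Apoe* KO mice. With a pseudocount of 10 the interaction was 3.41. As said above for *Mmp3*, its presence in the table may depend on its level in the ethanol-fed *Apoe* KO mice, so its interaction is a description. *Timp1* had an interaction of 3.88 (adjusted p = 0.00714), with a fall in WT and a rise in *Apoe* KO mice. *Mmp12* had an interaction of 2.35 (adjusted p = 0.00507), with a diet difference of −0.39 in WT mice (95% confidence interval −0.97 to 0.20) and of 1.96 in *Apoe* KO mice. *Timp2* had an interaction of 1.14 (adjusted p = 0.0358), which did not pass with voom on the estimated reads (0.996, adjusted p = 0.0789) or without any one of 9 mice, pair-fed WT 1, 2 and 4, pair-fed *Apoe* KO 1 and 3, ethanol-fed WT 1 and 2 and ethanol-fed *Apoe* KO 4 and 5 (up to 0.0969). The voom fit again took the values of ethanol-fed WT mice 2 and 5 as reads. Without ethanol-fed *Apoe* KO mouse 1, these 4 genes passed again, with interactions of 6.38, 4.38, 2.51 and 1.24 in the same order.

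*Mmp2*, by contrast, had an interaction of 0.85 (95% confidence interval 0.13 to 1.57) that did not pass (adjusted p = 0.205), so that a different ethanol response between genotypes was not shown for it. For *Mmp14* and *Timp3*, which rose with ethanol in both genotypes, the interactions were 0.11 (−0.25 to 0.47) and 0.05 (−0.47 to 0.57). Both turned to the other sign with median-of-ratios scaling, at −0.03 and −0.09.

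**Figure D2:**
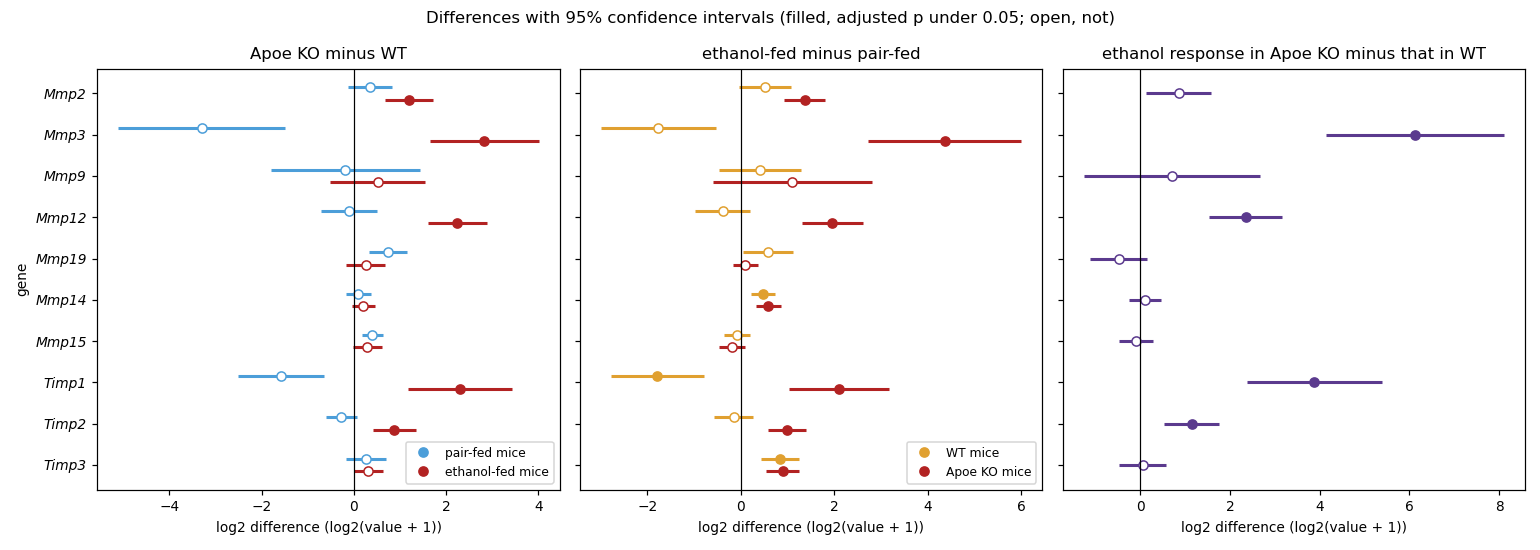
Log2 differences on the log2(value + 1) scale (horizontal axis) for each gene (vertical axis), with 95% confidence intervals as lines, between genotypes within each diet, between diets within each genotype, and between the ethanol responses of the genotypes. Filled points passed an adjusted p of 0.05 and open points did not; *Mmp3* and *Timp1* have differences of opposite sign in the 2 diets and in the 2 genotypes.

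Levels of different genes can be compared only per length, and here they are given as values per kb of the longest protein-coding transcript in GENCODE M21. *Mmp14* had the highest mean over the 18 mice, 545.6 per kb, followed by *Mmp19* (327.2), *Mmp15* (265.0) and *Timp2* (248.9). Then came *Mmp2* (82.4), *Timp1* (68.9) and *Timp3* (57.0), and last *Mmp12* (23.8), *Mmp3* (12.2) and *Mmp9* (8.2). The 3 MMPs that differed between the ethanol-fed genotypes were thus among the 4 MMPs with the lowest levels. In ethanol-fed *Apoe* KO mice, *Timp2* reached 391.4 ± 146.7 per kb (SD, n = 4), within the spread of *Mmp19* at 385.1 ± 52.7, and *Mmp2* (159.4 ± 49.2) and *Timp1* (146.4 ± 93.8) lay within each other's spread. In the same mice, *Mmp12* was at 59.3 ± 25.9 and *Mmp3* at 32.8 ± 14.9 per kb, and the lowest mouse for *Mmp12* (37.4) lay below the highest for *Mmp3* (53.3).

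**Figure D3:**
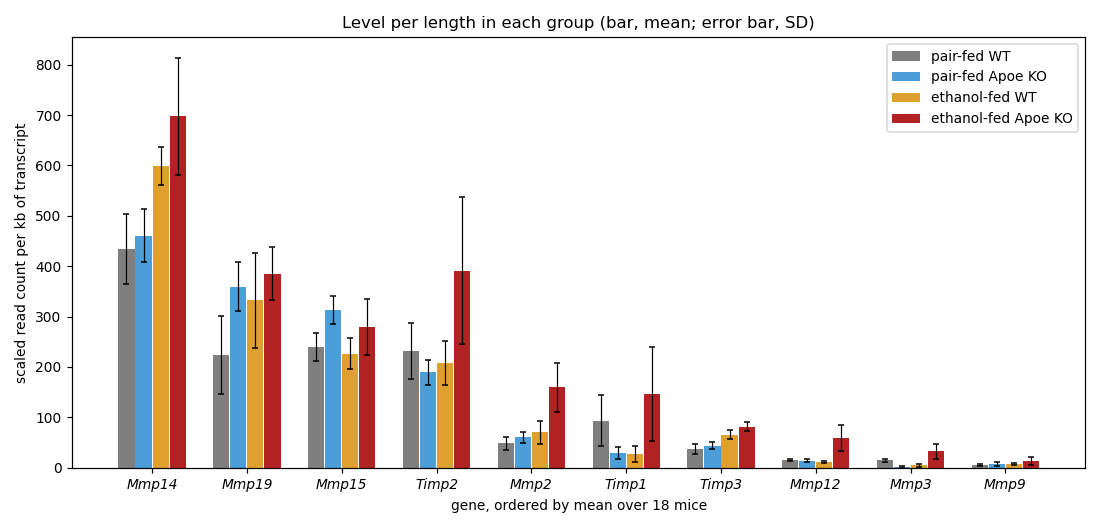
Level per length (scaled read count per kb of transcript, vertical axis) of the 10 genes, ordered by their mean over 18 mice, with a bar for the mean and an error bar for the SD of each group. *Mmp14* was highest in each group, and the bars of *Mmp2*, *Mmp12*, *Mmp3* and *Timp1* were highest in ethanol-fed *Apoe* KO mice.

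The summed level of the 7 MMPs was 979.6 ± 67.8 per kb in pair-fed WT (SD, n = 4), 1216 ± 103 in pair-fed *Apoe* KO (n = 5), 1252 ± 61.2 in ethanol-fed WT (n = 5) and 1625 ± 271 in ethanol-fed *Apoe* KO mice (n = 4). The summed level of the 3 TIMPs was 363.2 ± 79.5, 262.4 ± 29.4, 300.5 ± 62.1 and 619.5 ± 244 per kb in the same order. The ratio of both sums was 2.92, 2.66, 3.63 and 2.0 in the pair-fed WT mice. It was 5.13, 4.68, 5.2, 4.42 and 3.91 in the pair-fed *Apoe* KO mice, all above the pair-fed WT mice. It was 4.35, 6.2, 4.3, 3.85 and 3.07 in the ethanol-fed WT mice and 3.72, 3.05, 2.12 and 2.35 in the ethanol-fed *Apoe* KO mice. The ethanol-fed groups overlapped in this ratio only through KO mouse 1 (3.72), the mouse that went against its label. The other ethanol-fed KO mice, at 3.05 or less, lay below the lowest ethanol-fed WT mouse (3.07), by a small margin. Pair-fed WT and ethanol-fed *Apoe* KO mice also overlapped, with means of 2.80 and 2.81. *Timp1* made up 8.54% ± 3.78 of the TIMP sum in ethanol-fed WT and 21.9% ± 8.28 in ethanol-fed *Apoe* KO mice, and *Timp2* was the largest part in each of the 18 mice. These are ratios of mRNA and do not give the activity of the proteases.

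**Figure D4:**
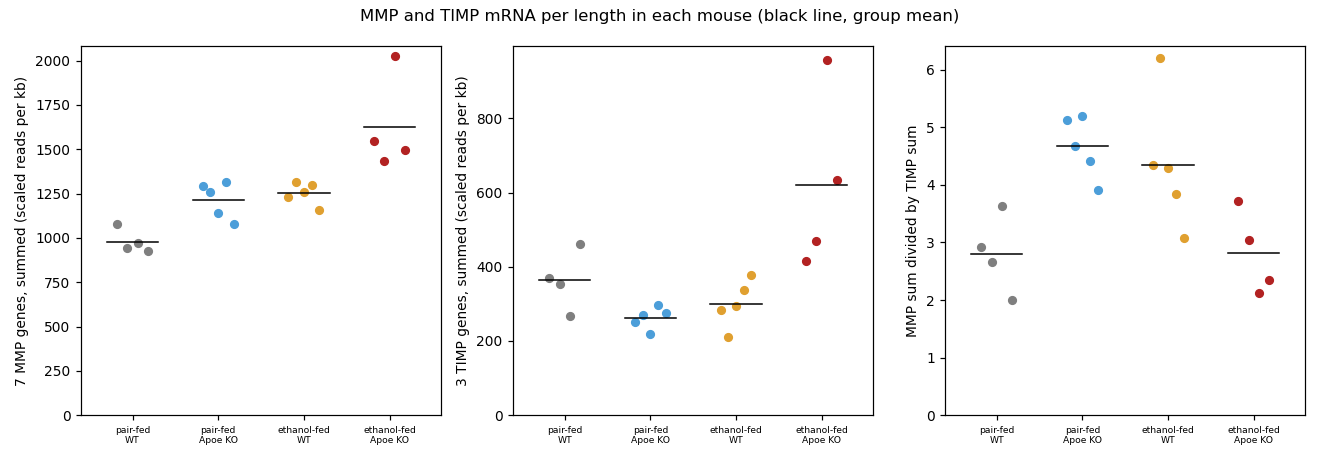
Summed level per kb of the 7 MMP genes, of the 3 TIMP genes, and the first divided by the second (vertical axes), in each mouse of the 4 groups, with a black line at the group mean. The TIMP sum in the 4 ethanol-fed *Apoe* KO mice ran from 415.3 to 957.5, above the ethanol-fed WT mice (211.9 to 377.4). The ratios of these groups overlap through KO mouse 1 only.

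Genes related to the 10 were taken from lists of named genes. Of 17 further MMP and TIMP genes, 6 were in the table (*Mmp7*, *Mmp11*, *Mmp13*, *Mmp17*, *Mmp23* and *Mmp27*), and 0 of these 6 passed the test between the ethanol-fed genotypes by limma, also at an unadjusted p under 0.05. Their group means were at most 124, and the remainder were not analysed here. Of 23 ADAM and ADAMTS proteases, 1 was higher in ethanol-fed *Apoe* KO mice, close to the 4.25% of all genes. This was *Adamts2*, which removes the N-terminal propeptide of procollagens (log2 fold change 1.05, adjusted p = 0.0158). Of 21 other activators and inhibitors of proteolysis, 6 were higher and 0 lower. *Plat*, a plasminogen activator, was higher by a log2 fold change of 1.97 (adjusted p = 0.0068). *Cd44*, a hyaluronan receptor that can hold MMP9 at the cell surface, was higher by 1.12 (adjusted p = 0.00598), and *Pcolce*, the procollagen C-proteinase enhancer, by 1.04 (adjusted p = 0.00629).

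Of 28 matrix genes whose proteins are substrates of MMPs, 15 were higher and 0 lower in ethanol-fed *Apoe* KO than in ethanol-fed WT mice. Over all genes, 4.25% were higher and 0.445% lower. The median log2 fold change of the 28 was 0.87. *Col1a1* rose from 1201 ± 415 (SD, n = 5) in ethanol-fed WT to 4893 ± 2319 (n = 4) in ethanol-fed *Apoe* KO mice, a log2 fold change of 1.996 (adjusted p = 0.00216). *Col3a1* (1.75, adjusted p = 0.00209), *Col1a2* (1.45, 0.00331) and *Col4a1* (1.23, 0.00355) also rose. Collagen mRNA was thus higher in the same mice in which *Mmp2*, *Mmp3* and *Mmp12* mRNA was higher. In pair-fed mice, 0 of the 28 were higher and 3 lower in *Apoe* KO, against 0.870% and 0.864% of all genes. Of 17 cytokine and AP-1 genes that are known to induce MMP and TIMP genes, 0 passed between the ethanol-fed genotypes by limma (6 at an unadjusted p under 0.05, all higher). With ethanol, 4 rose in WT mice, where 6.19% of all genes rose, and 9 rose in *Apoe* KO mice, where 16.3% of all genes rose.

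Marker genes of liver cells moved with these results in part. The counts below stand against 4.25% of all genes higher and 0.445% lower between the ethanol-fed genotypes. Of 14 genes listed as markers of monocyte-derived macrophages (MoMFs), 8 were higher and 0 lower in ethanol-fed *Apoe* KO than in ethanol-fed WT mice, with *Cd68* (1.35, adjusted p = 0.000725), *Lyz2* (1.54, 0.00151), *Trem2* (1.91, 0.00363) and *Lgals3* (1.39, 0.00387) in front. The study treats CD68 as a marker of all macrophages, so the list does not separate MoMFs from Kupffer cells. In ethanol-fed *Apoe* KO mice, *Lyz2* (mean 5125) and *Spp1* (3621) carried much of the sum of this list. The summed value of the 14 ran from 4888 to 7743 in ethanol-fed WT and from 9603 to 18693 in ethanol-fed *Apoe* KO mice, and was 9621 to 16642 in pair-fed WT and 8004 to 11234 in pair-fed *Apoe* KO mice. One marker, *Fabp5*, a fatty acid-binding protein gene with means of 4816 in pair-fed WT and 663 in ethanol-fed *Apoe* KO mice, carries much of the pair-fed WT sum. Without it the mean sums of these groups were 8486 and 12486, against 13302 and 13149 with it. Of 8 Kupffer cell markers, 6 were higher, led by *Cd5l* (1.77, adjusted p = 0.0012), *Clec4f* (1.12, 0.00598), *Timd4* (1.2, 0.0113) and *Marco* (1.5, 0.014), and their sum ran from 9014 to 14167 in ethanol-fed WT and from 15976 to 27624 in ethanol-fed *Apoe* KO mice. In pair-fed mice the Kupffer cell sum was 14256 to 18334 in WT and 12581 to 21679 in *Apoe* KO. The part of either cell type in the values of *Mmp12*, *Timp1* or the other genes was not tested.

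Of 13 stellate cell markers, 0 passed between the ethanol-fed genotypes by limma, with 5 higher and 1 lower at an unadjusted p under 0.05. The median log2 fold change of the 13 was 0.402, against 0.107 over all genes, and 10 of them had a positive difference. The sum of the 13 was 19252 to 26212 in ethanol-fed WT and 16508 to 23006 in ethanol-fed *Apoe* KO mice, with overlap. In pair-fed mice it was 23354 to 26920 in WT and 22016 to 25604 in *Apoe* KO. The order of the ethanol-fed groups in this sum was set by the chemokine gene *Cxcl12*, which had a mean of 10179 in ethanol-fed WT and 7618 in ethanol-fed *Apoe* KO mice. The mean sum was 22074 and 20195 with it and 11895 and 12577 without it, and the ranges without it, 10142 to 15598 and 9555 to 15007, overlapped too. Neutrophils are a known source of MMP9. Of 5 neutrophil markers, 0 passed (0 at an unadjusted p under 0.05), and their sum was low, at 208 to 282 against 189 to 519. Of 8 cholangiocyte markers, 1 was higher, *Krt19* (2.05, adjusted p = 0.0445). Of 10 markers of sinusoidal endothelium and 10 of hepatocytes, 0 and 0 passed by limma, with 0 and 1 at an unadjusted p under 0.05. The hepatocyte sum, which includes *Alb*, was 2617428 to 4448715 over the 18 mice, by far the highest of the lists in this liver tissue. No marker in the table was at 0 in every mouse of a group.

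**Figure D5:**
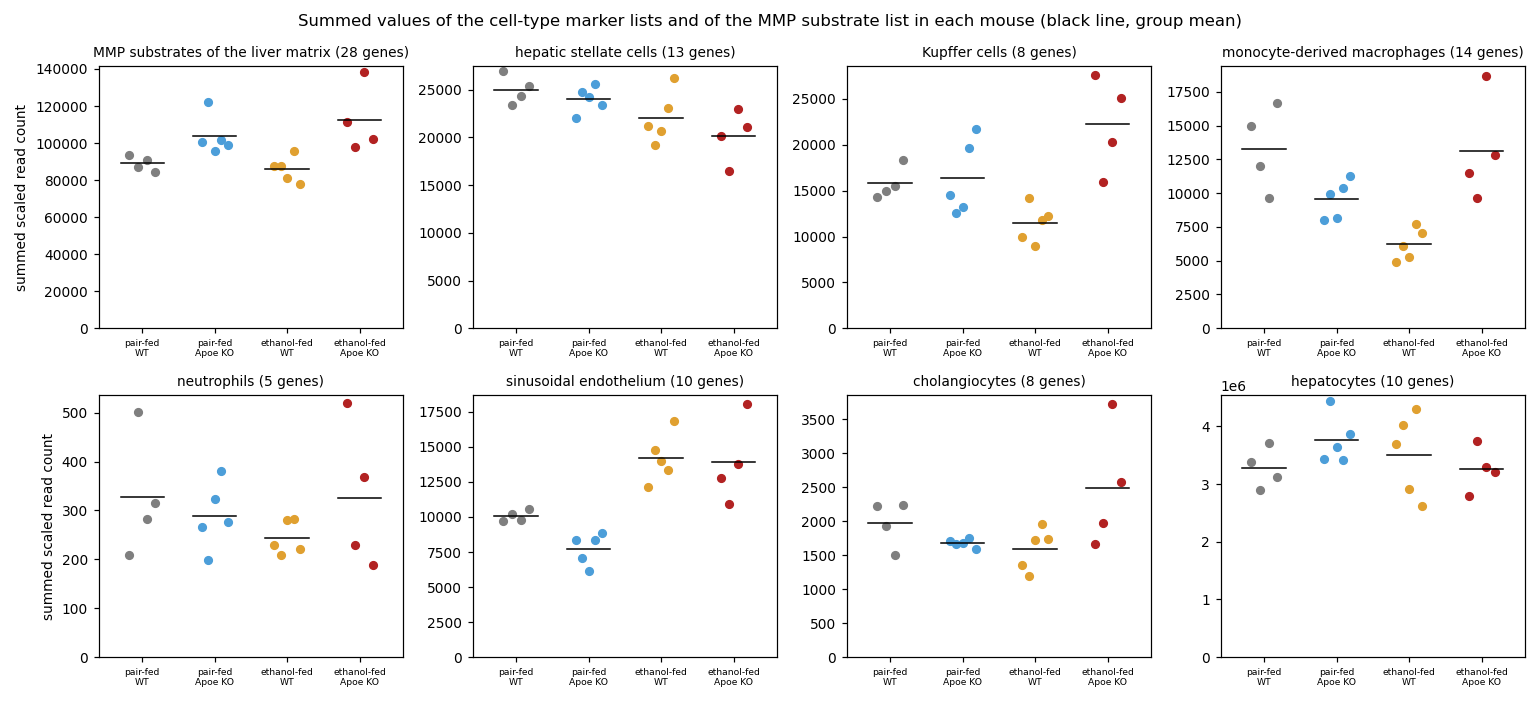
Summed value of each list of cell type markers and of the MMP substrates (vertical axes, scaled read counts) in each mouse of the 4 groups, with a black line at the group mean. The macrophage and Kupffer cell sums of the ethanol-fed *Apoe* KO mice lay above those of the ethanol-fed WT mice, and the stellate cell sums overlapped.

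The genes whose values ran most like each of the 10 over the 18 mice were found by Pearson correlation of log2(value + 1), among 12476 genes with a mean value of at least 50. The points share the 4 groups and differ in depth, and the correlations are a description. *Mmp2* was most like *Col5a2* (r = 0.929), a collagen gene, *Lum* (0.918), which encodes the collagen-binding proteoglycan lumican, and *Dkk3* (0.906). *Timp2* was most like *Bgn* (0.951), which encodes biglycan, *Clstn1* (0.943) and *Ltbp1* (0.943), which encodes a binding protein of latent TGF-β. *Timp1* was most like *Tmsb10* (0.958), *Myof* (0.956) and *Mgat3* (0.945). *Mmp12* ran with *Anxa5* (0.946), *Lamc1* (0.921) and *Hmga1* (0.912), and *Mmp3* with *Sprr1a* (0.880), *Dpysl3* (0.868) and *Cdh13* (0.857). *Mmp14* shared *Dkk3* (0.918) with *Mmp2*, followed by *Bzw2* (0.908) and *Polr1a* (0.900).

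*Timp3* was most like *Ddx21* (0.946), *Adora1* (0.929) and *Rpl7l1* (0.929), and *Mmp19* most like *Ctnnb1* (0.956), *Zmpste24* (0.946) and *Ncoa4* (0.943). *Mmp15* ran with *Pfkl* (0.856), *Klhl2* (0.841) and *Man1b1* (0.827), and *Mmp9* with *Shkbp1* (0.848), *Rangap1* (0.826) and *Dhx29* (0.802). Within the groups, after subtraction of the group means, the correlation of *Timp2* with *Bgn* was 0.925, of *Mmp19* with *Ctnnb1* 0.921, of *Timp1* with *Tmsb10* 0.901 and of *Mmp2* with *Col5a2* 0.869. For *Mmp9* with *Shkbp1* it was 0.849. It was lower for *Mmp3* with *Sprr1a*, at 0.573, for *Timp3* with *Ddx21*, at 0.707, and for *Mmp12* with *Anxa5*, at 0.716. *Mmp15* with *Pfkl* had 0.739 and *Mmp14* with *Dkk3* 0.752.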

How the data were processed

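Liver polyA RNA of 18 mice was sequenced. Per the labels and the study's methods, the authors used Trimmomatic for trimming, HISAT2 for alignment to GRCm38, featureCounts for counting and DESeq2 for comparison. Versions and the use of strand are not given in the sources used here. The authors deposited 1 table with a signal per gene and mouse, namely read counts scaled to a nearly common total (32267493 to 32292618) and rounded to whole numbers. How the scaling was done is not given in the sources used here. The log2 fold changes, p-values, mean values and rank scores that the authors deposited for their own comparison were not used. The table has 195 repeated entries for 56 genes, each gene was used once, and 15052 genes were left.

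Because the values are not counts, limma 3.58.1 (R 4.3.3) with an intensity trend was fitted to log2(value + 1) of the mice compared, or of all 18 for the interaction, with Benjamini-Hochberg adjustment over 15052 genes. A gene passed at an adjusted p under 0.05. Each mouse is 1 replicate. How the mice were housed is not given in the sources used here. The number of reads on genes was estimated from the steps between low values. Whole reads could not be recovered for 2 mice, ethanol-fed WT 2 and 5, so that no count model was used for the main tests. Confidence intervals are at 95%, and those and the limits from 3 reads cover no error other than the spread between mice and counting error. Alternatives were median-of-ratios scaling, pseudocounts of 0.1 and 10, values of at least 10 in every mouse, all 18 mice in 1 fit, sample quality weights, a replicate block, leaving out each mouse, and, added after the values were seen, voom on the estimated reads. In the voom fits that held the 2 mice without an estimate, their values were taken as reads. The limma fit was tested on simulated data.

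The members and lists were chosen with earlier results of these data known. All 10 members are named. Of each other list, up to 4 genes with the lowest adjusted p under 0.05 between the ethanol-fed genotypes are named, and for each member the 3 genes most like it, except for 1 gene that counts in its list and is not reported here by name. The 6 further MMP genes in the table are named as a count that was looked at by gene. Counts of a list are over its genes in the table. These were 23 of 31 ADAM and ADAMTS, 21 of 22 other activator and inhibitor and 17 of 22 cytokine and AP-1 genes. Of the markers, they were 13 of 14 stellate cell, 5 of 15 neutrophil and 8 of 9 cholangiocyte genes. Lengths and positions came from GENCODE M21 (GRCm38) and promoters from RefSeq (GRCm38.p6). Scripts used Python 3.11.15, numpy 2.4.6, pandas 2.3.3 and matplotlib 3.10.9.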

Additional observations from a re-analysis of the deposited data

Results flagged for a closer look

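The response to ethanol differed between genotypes for 4 of the 10 genes by the interaction in limma, as log2 values of *Apoe* KO minus WT. These were *Mmp3* with 6.13 (adjusted p = 0.00329), *Timp1* with 3.88 (adjusted p = 0.00714), *Mmp12* with 2.35 (adjusted p = 0.00507) and *Timp2* with 1.14 (adjusted p = 0.0358). *Mmp3* may be in the table only through the ethanol-fed *Apoe* KO mice, so its value is a description.

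One mouse stood far from the rest of its group in 4 of 40 sets of values (10 genes in 4 groups), where Dixon's test at 95% would mark about 1 in 20, or 2.0 of 40, by chance. The gaps and ranges are on the log2(value + 1) scale, and on the values as deposited 3 of the 4 were marked. Pair-fed WT mouse 3 was low for *Mmp14*, with 1066, and its gap to the nearest mouse was 0.948 of the range (0.939 as deposited). The same mouse was low for *Mmp2*, with 90 and a gap of 0.860 of the range (0.816 as deposited, which was under the critical value). Pair-fed *Apoe* KO mouse 3 was low for *Mmp9*, with a value of 1 and a gap of 0.918 of the range (0.786 as deposited). Ethanol-fed WT mouse 2 was high for *Mmp12*, with 57 and a gap of 0.763 of the range (0.80 as deposited), and this value was below that of each ethanol-fed *Apoe* KO mouse.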

How the results depend on the processing

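Over 50 differences of single genes and 922 alternatives, direction and side of the threshold were kept in 863, 28 lost the call, 16 gained it and 15 changed sign. Of 19 differences that passed, 13 passed in every alternative that could be fitted. Between the ethanol-fed genotypes, 3 to 5 genes passed with each mouse left out (3 without WT mouse 1 or 2 or KO mouse 4 or 5). In pair-fed mice, 0 to 3 passed with each mouse left out, 1 with a pseudocount of 10, with voom on the estimated reads, with all 18 mice in 1 fit and with the replicate block, and 2 with sample quality weights. Between diets in WT mice, 5 passed with sample quality weights. The changes of sign were all of differences that had not passed. In pair-fed mice, *Mmp9* was at 0.050 with a pseudocount of 10, and *Mmp12* at 0.0062 with sample quality weights and 0.00071 with the replicate block. With median-of-ratios scaling, *Mmp19* was at −0.024 between diets in *Apoe* KO mice, and the interactions of *Mmp14* and *Timp3* were −0.032 and −0.091. With each mouse left out, the pair-fed difference ran from −0.40 to 0.57 for *Mmp9*, −0.25 to 0.00071 for *Mmp12* and −0.029 to 0.15 for *Mmp14*, and the interaction from −0.057 to 1.18 for *Mmp9* and −0.12 to 0.16 for *Timp3*. The cause of these changes was not tested. Mice with the same number correlated in their deviations from group means by −0.024 to 0.230 between the ethanol-fed genotypes, and not every pair exceeded 0.1 in any comparison, so the numbers were not taken to pair mice. Of the 8 ethanol-fed mice with shared numbers, 6 correlated best with their own number in the other genotype, which is a hint from the data and not from the design. In the other comparisons this held for 3 of 8 mice (pair-fed genotypes), 2 of 8 (diets in WT) and 3 of 8 (diets in *Apoe* KO). Each mouse had 4 numbers to choose from. The block between 2 groups also left out the mouse without a partner, so it is set beside the fit without that mouse and without a block. *Mmp14* between diets in WT mice did not pass with the block (0.47, adjusted p = 0.0738) and passed without it (adjusted p = 0.0311). *Mmp19* between the pair-fed genotypes passed with the block (0.81, adjusted p = 0.0404) and without it (adjusted p = 0.0489), and the *Mmp12* value was the same in both. Over all genes, the ethanol-fed genotypes gave 961 higher and 122 lower with the block and 520 and 58 without it, against 639 and 67 with all 9 mice. Median-of-ratios scaling gave 380 higher and 126 lower. Depth limits the low genes, since single mice had 0 to 45 estimated reads of *Mmp3*, 1 to 77 of *Mmp9* and 6 to 82 of *Timp1*. *Mmp3*, and *Mmp9* in comparisons with pair-fed *Apoe* KO mice, gave no value under the minimum of 10 in every mouse.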
